A study of Mus musculus with 4 samples.

Results

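The Sprouty, Spred and ERK phosphatase genes were compared between cultures of newborn mouse prefrontal cortex (PFC) with and without FGF2. They are 10 genes (Spry1, Spry2, Spry3, Spry4, Spred1, Spred2, Spred3, Dusp4, Dusp5 and Dusp6), listed by name for their place in FGF signalling and found by gene symbol among the 55421 genes that each library lists. PFC of wild-type C57BL/6 mice at postnatal day 0 was dissociated with papain and cultured for 10 days in neurobasal medium with B27 and GlutaMAX, so both groups share age, genotype, medium and culture time. FGF2 was added at 5 ng/mL in one group and left out in the other, and total RNA was sequenced from 2 libraries per group. Each group has a library titled B1 and another titled B2 (replicates 1 and 2 here). The study's methods describe the replicates of most bulk samples as technical. Separate cultures are therefore not stated, and every p-value here measures only the spread between these libraries, which may be technical.

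FGF2 binds FGF receptors on the cell surface, which pass a signal through the adaptor FRS2 and the GTPase Ras to the kinases Raf, MEK and ERK. ERK raises the transcription of its own inhibitors, so that a lasting signal dampens itself. Sprouty proteins act between the receptor and Raf, Spred proteins bring the Ras inactivator neurofibromin to the membrane, and dual-specificity phosphatases (DUSPs) remove the activating phosphates from ERK. Transcripts of these genes are widely read as a record of FGF signalling in the developing cortex.

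The counts on genes totalled between 9166432 and 10799886 per library. Levels are given in CPM, which relate each count to the TMM-scaled total of its library, and fold changes are FGF2 over no FGF2. A gene was called when its adjusted p-value was below 0.05 in the quasi-likelihood test of edgeR with Benjamini-Hochberg adjustment over all 17144 genes tested. In this test 20.7% of the tested genes were called higher with FGF2 and 19.9% were called lower.

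Of the 10 genes, 9 passed the filter on low counts, and each of these had at least 43 counts in every library. With FGF2, 7 of the 9 were called higher (Spry1, Spry2, Spry4, Spred1, Spred3, Dusp4 and Dusp6), against 20.7% of all tested genes, and 0 were called lower. The median log2 fold change of the 9 genes was 0.33, and that of all tested genes was -0.00082. For the same 7 genes each library with FGF2 lay above each library without it, which held for 33.6% of all tested genes. With DESeq2 as the test, 2 of the 9 were called higher (Spry4 and Spred1), against 11.6% of the genes that DESeq2 gave an adjusted p-value.

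**Figure D1:**
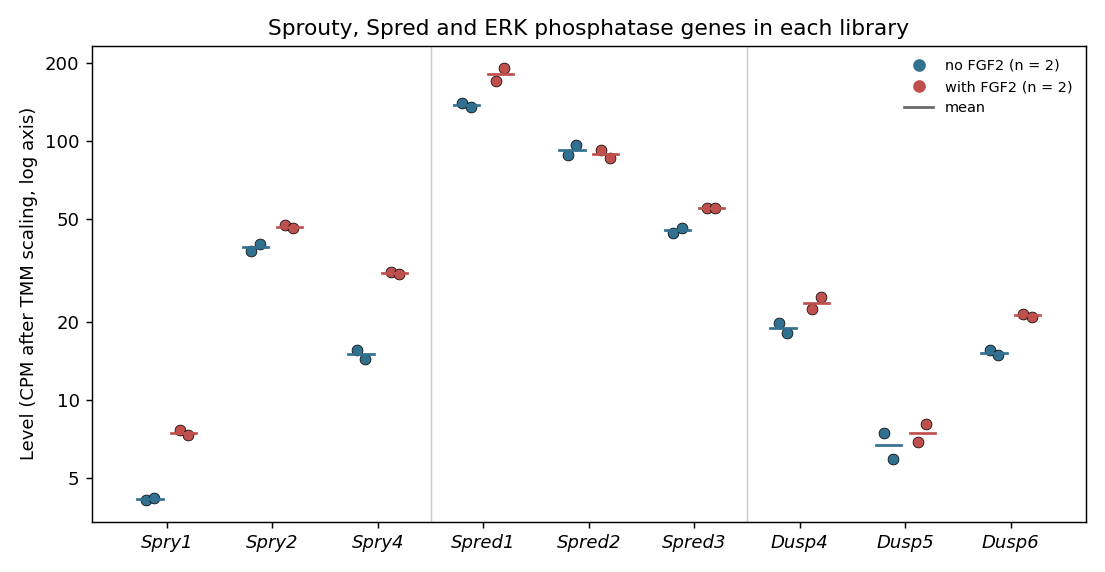
Level of each tested gene in the 4 libraries (CPM after TMM scaling, log axis), with a point per library and a line at the group mean (n = 2 per group). The points of the groups overlap only for Spred2 and Dusp5, and the widest gap is that of Spry4.

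Spry4, an inhibitor of the path from receptor tyrosine kinases to Ras and Raf, changed most. It lies on chromosome 18 of mm10 from 38586247 to 38601415 on the minus strand. Its counts were 283 and 300 in the FGF2 libraries, against 164 and 155 in the others. These were levels of 31.2 and 30.5 CPM against 15.6 and 14.3 CPM, so the libraries of the groups were well apart. The fold change was 2.06, or 1.04 on the log2 scale (standard error, SE, 0.13, edgeR adjusted p = 1.8e-14). Among all tested genes 5.43% had a higher log2 fold change. The call also held with DESeq2 (adjusted p = 1.8e-06), and the log2 fold change lay between 0.98 and 1.10 when a library was left out.

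Spry1, of the same family and needed in the embryo to restrain growth factor signals in the kidney, was the least abundant of the tested Sprouty genes. It lies on chromosome 3 from 37639947 to 37644598 on the plus strand. It had 69 and 72 counts in the FGF2 libraries, against 43 and 45 in the others, or 7.60 and 7.32 CPM against 4.09 and 4.16 CPM. The log2 fold change was 0.85 (SE 0.25, edgeR adjusted p = 0.0030), a fold change of 1.81 with a 95% interval from 1.28 to 2.55. This interval is the widest among the called genes. With DESeq2 Spry1 did not pass (adjusted p = 0.10). A transcript of uncertain status on the opposite strand, Gm42922, shares 710 exonic bases with Spry1 and had between 0 and 5 counts per library. Since the strand setting of the counting is not known here, reads of such overlapping pairs cannot be told apart.

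Spry2, which binds the ubiquitin ligase Cbl and the adaptor Grb2, was the most abundant Sprouty gene and changed least. It lies on chromosome 14 from 105891947 to 105896819 on the minus strand. Its levels were 47.3 and 45.9 CPM with FGF2 and 37.6 and 39.9 CPM without FGF2. The groups did not overlap, but the log2 fold change was only 0.26 (SE 0.10, edgeR adjusted p = 0.017), or 20.1% more. The call was lost with DESeq2 (adjusted p = 0.21), without replicate 1 with FGF2 (edgeR adjusted p = 0.083) and when replicate 1 without FGF2 was left out (edgeR adjusted p = 0.18).

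Spry3 was listed at 0 counts in every library. It is annotated on the unplaced scaffold GL456233.1 of mm10, and 0 of the 86 listed genes on unplaced scaffolds had a count in any library. The count of 0 therefore gives no level or upper limit for Spry3.

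The family was also described by its make-up, with levels divided by the exonic length of each gene so that genes could be set side by side. The summed level of the Sprouty genes was 31.4 ± 0.653 CPM per kb with FGF2 and 23.1 ± 0.605 CPM per kb without FGF2 (SD, n = 2). Spry2 held 71.1% ± 0.0559 of this sum with FGF2 and 80.2% ± 1.28 without FGF2 (SD, n = 2). The share of Spry4 was 20.7% ± 0.105 with FGF2 and 13.6% ± 1.19 without FGF2, and that of Spry1 was 8.19% ± 0.0496 and 6.14% ± 0.0933 (SD, n = 2). Thus the mix moved away from Spry2, although Spry2 itself was higher with FGF2. The ratio of Spry2 to Spry4 counts, which needs no scaling between libraries, was 0.60 and 0.59 on the log2 scale with FGF2 and 1.27 and 1.48 without FGF2.

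**Figure D2:**
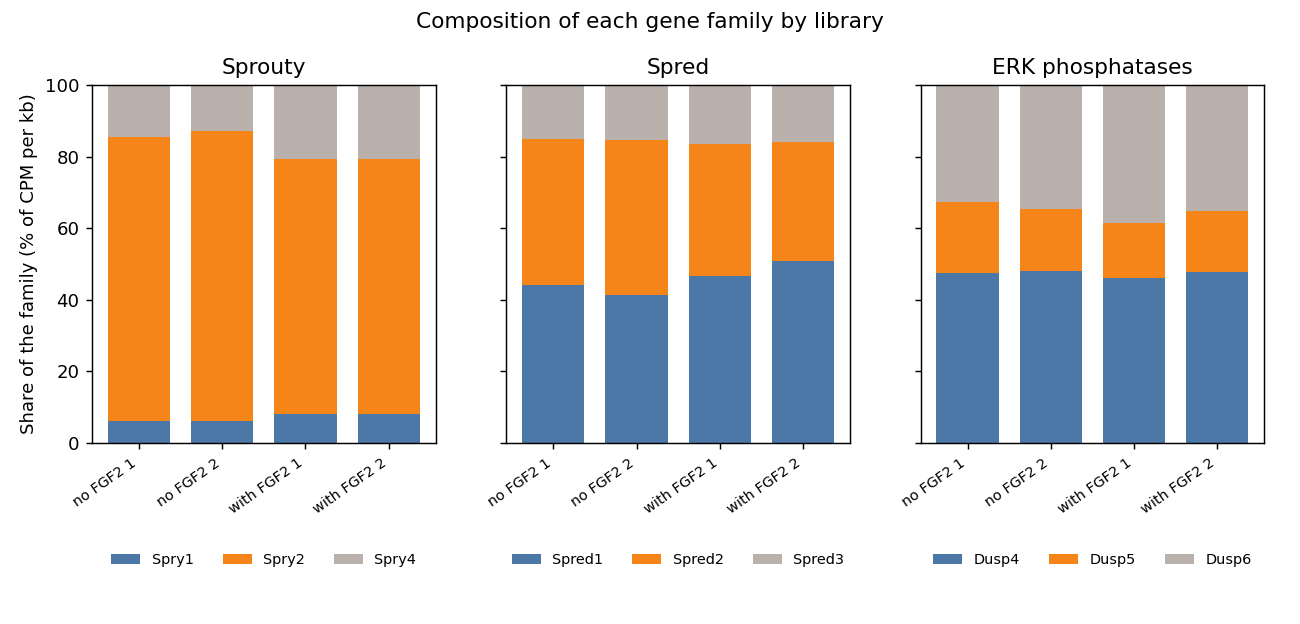
Share of each gene in the summed level of its family (% of CPM per kb of exon) in the 4 libraries, with Spry3 at 0. The Spry4 part is larger in both libraries with FGF2, the Spred2 part is smaller, and the Dusp4 part is of similar size in all libraries.

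Spred1 and Spred3 rose with FGF2, whereas Spred2 did not pass the test. Spred proteins carry an EVH1 domain and the Sprouty-related cysteine-rich domain. Loss of human SPRED1 causes Legius syndrome, a disorder of Ras signalling.

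Spred1, on chromosome 2 from 117121374 to 117182279 on the plus strand, had the highest mean level per length of the 9 genes in both groups, although without FGF2 it did not differ from Spred2 beyond their SD. It had 171 and 192 CPM with FGF2 and 140 and 134 CPM without FGF2, and rose by 0.41 on the log2 scale (SE 0.05, edgeR adjusted p = 1.2e-12). The call also held with DESeq2 (adjusted p = 1.0e-05). Its libraries with FGF2 had 1551 and 1887 counts and differed by more than counting error (exact binomial test, two-sided, p = 7.7e-04, adjusted p = 0.014 over the 18 replicate pairs of the 9 genes). This was the only one of the 18 pairs past the adjusted threshold. Its log2 fold change was 0.48 when replicate 1 with FGF2 was left out and 0.32 when replicate 2 was.

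Spred3, a family member known mainly from brain, lies on chromosome 7 from 29158829 to 29170411 on the minus strand. It had 55.1 and 55.0 CPM with FGF2 and 44.1 and 46.1 CPM without FGF2. The groups did not overlap and the log2 fold change was 0.29 (SE 0.09, edgeR adjusted p = 0.0043), but the call was lost with DESeq2 (adjusted p = 0.11) and when replicate 1 without FGF2 was left out (edgeR adjusted p = 0.081). Ggn overlaps Spred3 on the opposite strand by 202 exonic bases and had between 24 and 27 counts per library.

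Spred2, which like Spred1 is expressed in many tissues, lies on chromosome 11 from 19924375 to 20024026 on the plus strand. It had 92.0 and 85.8 CPM with FGF2 and 87.9 and 96.2 CPM without FGF2, so the groups overlapped. The log2 fold change was -0.05 (SE 0.07, edgeR adjusted p = 0.60), with a 95% interval of the fold change from 0.879 to 1.06. The ratio of Spred1 to Spred2 counts was 1.86 and 2.24 with FGF2 and 1.59 and 1.40 without FGF2. The Spred1 and Spred2 shares of the summed Spred level were 48.7% ± 2.89 and 35.1% ± 2.51 with FGF2 and 42.7% ± 2.00 and 42.0% ± 1.82 without FGF2 (SD, n = 2).

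Among the ERK phosphatases, Dusp6 and Dusp4 rose with FGF2 and Dusp5 did not pass the test. Dusp6 is the cytoplasmic phosphatase specific for ERK, and its transcript is a common reporter of FGF signalling in embryos. It lies on chromosome 10 from 99263231 to 99267489 on the plus strand. Its counts of 195 and 206 in the FGF2 libraries, against 163 and 161 in the others, gave 21.5 and 20.9 CPM against 15.5 and 14.9 CPM. The fold change was 1.40, or 0.48 on the log2 scale (SE 0.14, edgeR adjusted p = 0.0026), and the call was lost with DESeq2 (adjusted p = 0.10).

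Dusp4, a nuclear phosphatase of ERK and other MAP kinases, lies on chromosome 8 from 34807297 to 34819894 on the plus strand. It had 204 and 245 counts in the FGF2 libraries, against 207 and 195 in the others. These were 22.5 and 24.9 CPM with FGF2 and at most 19.7 CPM without FGF2, so the levels did not overlap although the counts did. The log2 fold change was 0.33 (SE 0.13, edgeR adjusted p = 0.031), the weakest of the 7 calls. It was lost with DESeq2 (adjusted p = 0.29), with upper quartile scaling (edgeR adjusted p = 0.0501) and without replicate 2 with FGF2, replicate 1 without FGF2 or replicate 2 without FGF2, where the edgeR adjusted p-values were 0.23, 0.064 and 0.24.

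Dusp5, a nuclear phosphatase specific for ERK, lies on chromosome 19 from 53529109 to 53542431 on the plus strand and had 62 and 79 counts in the FGF2 libraries, against 78 and 64 in the others. These were 6.83 and 8.03 CPM against 7.42 and 5.91 CPM, and the groups overlapped. The log2 fold change was 0.16 (SE 0.23, edgeR adjusted p = 0.62), with a 95% interval of the fold change from 0.823 to 1.52. It was 0.33 when replicate 1 without FGF2 was left out and 3.3e-04 when replicate 2 without FGF2 was. At this depth a rise of the size seen for Dusp6 lay inside the interval. A gene on the opposite strand, AC137853.2, shares 547 exonic bases with Dusp5 and had between 0 and 6 counts per library.

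The summed level of the ERK phosphatase genes was 18.4 ± 0.847 CPM per kb with FGF2 and 14.4 ± 1.01 CPM per kb without FGF2 (SD, n = 2). Dusp4 held 46.9% ± 1.25 and 47.7% ± 0.329 of it, Dusp6 36.8% ± 2.36 and 33.7% ± 1.36, and Dusp5 16.3% ± 1.11 and 18.6% ± 1.69 (SD, n = 2, with FGF2 first). Unlike in the Sprouty family, the mean share of the most abundant gene differed by less than the SD with FGF2, though by more than the SD without FGF2.

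**Figure D3:**
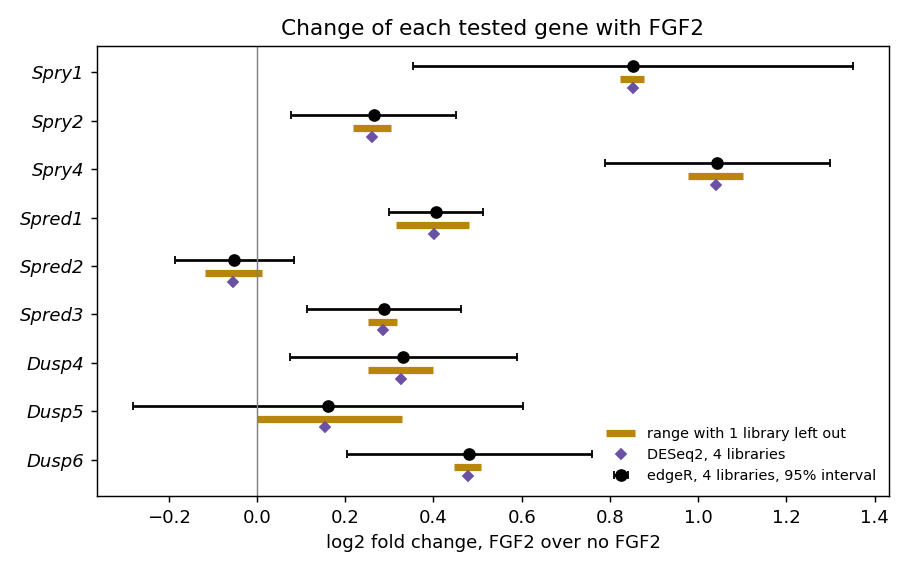
Log2 fold change of each tested gene, FGF2 over no FGF2. Black points are edgeR estimates with 95% intervals, bars span the 4 fits that each leave out 1 library, and diamonds are DESeq2 estimates. Only Spred2 and Dusp5 have intervals that include 0, and the edgeR and DESeq2 estimates nearly coincide.

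Whether genes of a family changed by different amounts was described with the ratio of their counts inside each library. The 3 pairs of a family share genes and are not independent, and other gene pairs were not compared. The largest shifts in the log2 ratio were -0.78 for Spry2 over Spry4, 0.59 for Spry1 over Spry2 and 0.45 for Spred1 over Spred2. An exact two-sided permutation test gave p = 0.33 for each of the 8 pairs whose groups did not overlap, the smallest that 2 libraries against 2 allow, and p = 0.375 after adjustment over the 9 pairs. The remaining pair, Spred1 over Spred3, overlapped (exact permutation p = 0.667).

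Per length, the order of levels without FGF2 was Spred1 (20.2 CPM per kb), Spred2 (19.9), Spry2 (18.6), Spred3 (7.25), Dusp4 (6.88), Dusp6 (4.85), Spry4 (3.15), Dusp5 (2.70) and Spry1 (1.42). The neighbours Spred1 and Spred2, Spred2 and Spry2, Spred3 and Dusp4, and Spry4 and Dusp5 did not differ beyond their SD (n = 2). With FGF2 the order was Spred1 (26.7 CPM per kb), Spry2 (22.3), Spred2 (19.3), Spred3 (8.85), Dusp4 (8.65), Dusp6 (6.77), Spry4 (6.49), Dusp5 (3.01) and Spry1 (2.57), and only Spred3 and Dusp4 did not differ beyond their SD. With the longest transcript in place of the exonic length the order stayed the same, but the gaps between genes moved. Spred3 was then at 13.6 CPM per kb with FGF2 and 11.1 without FGF2, so that it differed from Dusp4 beyond their SD. Without FGF2, Spred1 and Spred2 then also differed beyond their SD, as did Spred2 and Spry2, though barely.

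Promoter sequences, from RefSeq on GRCm38.p6, were looked up because most of the genes moved in the same direction. Promoters of 7 of the 10 genes were searched, and the other genes were left out of this search. Each promoter was searched on both strands, from 250 bases before to 50 bases after the RefSeq start site. The motifs were a strict form of the ETS site (CCGGAA), a cAMP response element (TGACGTCA), an AP-1 site (TGANTCA) and a GC box (GGGCGG). Matches of different motifs did not overlap. A GC box was found in 5 of the 7 promoters, against 35.7% of 32851 mouse promoters of the same length. The 7 promoters held between 55% and 72.3% G and C, and the promoters compared were not matched for this. The RefSeq start sites used for Spred2, Spred3 and Dusp5 lie inside the gene spans given above, and that of Spred1 lies before its span. The strict ETS form was found in 1 of the 7, that of Spry2 at position 34 after the start site, against 14.9% of all promoters. Other forms of the ETS site, such as those with GGAA alone, were not searched for. The cAMP response element and the AP-1 site were found in 0 of the 7, against 1.79% and 7.81% of all promoters. These matches describe the letters only and were not tested as binding sites.

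The 250 bases before the start site are shown for the called genes with the largest log2 fold changes among those searched, which leaves out Spry4. These are Spry1 (chr3:37639697-37639946), Dusp6 (chr10:99262981-99263230) and Spred1 (chr2:117120821-117121070). Spred2 (chr11:19924192-19924441), which was not called, is shown beside them. All are on the plus strand, written 5′ to 3′, with GC boxes in capitals. Spred1 has another GC box at position 14 after the start site.
Spry1: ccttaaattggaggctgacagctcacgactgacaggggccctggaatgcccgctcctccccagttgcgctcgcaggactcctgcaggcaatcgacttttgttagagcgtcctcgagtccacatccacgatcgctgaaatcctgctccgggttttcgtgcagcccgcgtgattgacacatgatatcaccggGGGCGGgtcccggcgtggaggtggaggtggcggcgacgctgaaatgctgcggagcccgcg
Dusp6: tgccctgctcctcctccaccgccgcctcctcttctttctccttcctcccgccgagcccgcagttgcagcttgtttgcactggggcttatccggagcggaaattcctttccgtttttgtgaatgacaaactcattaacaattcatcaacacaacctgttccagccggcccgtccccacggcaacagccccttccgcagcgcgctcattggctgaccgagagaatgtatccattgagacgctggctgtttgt
Spred1: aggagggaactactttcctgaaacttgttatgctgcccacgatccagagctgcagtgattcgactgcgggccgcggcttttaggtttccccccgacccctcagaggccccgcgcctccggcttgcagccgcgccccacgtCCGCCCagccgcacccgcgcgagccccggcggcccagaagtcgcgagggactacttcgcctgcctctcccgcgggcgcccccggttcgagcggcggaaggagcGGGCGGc
Spred2: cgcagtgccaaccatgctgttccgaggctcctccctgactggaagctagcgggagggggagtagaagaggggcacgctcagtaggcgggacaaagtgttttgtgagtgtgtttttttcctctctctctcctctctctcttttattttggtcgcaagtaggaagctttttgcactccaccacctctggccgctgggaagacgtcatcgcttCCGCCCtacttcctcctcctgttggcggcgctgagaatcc
The called Dusp6 has no match to the motifs as searched in its whole window. The GC box occurs in the called Spry1 and Spred1 as well as in Spred2, which was not called.

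Other genes of the pathway were taken from lists. Among the 22 genes from receptor to ERK, 7 were called higher and 5 lower, with a median log2 fold change of -0.04. Fgfr1, the main FGF2 receptor of neural progenitors, had the highest value, 0.72 (426 ± 16.9 CPM with FGF2 and 258 ± 1.43 CPM without FGF2, SD, n = 2). Fgfr2 was at -0.01 (edgeR adjusted p = 0.90), and Fgfr3 fell by 0.44 on the log2 scale (edgeR adjusted p = 1.5e-06). Mapk3, which encodes the kinase ERK1, was at 0.14 (edgeR adjusted p = 0.057). The lowest value was that of Hras, which fell by 0.56 on the log2 scale (edgeR adjusted p = 5.3e-06).

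Among 7 other MAP kinase phosphatases, 5 were tested, of which 2 were called higher and 2 lower with a median of 0.10. Each of these counts was 1 with DESeq2, the count of higher genes was 1 without replicate 1 with FGF2 or replicate 2 without FGF2, and that of lower genes was 1 when replicate 2 of either group was left out. Dusp16, which acts mainly on JNK, rose by 0.94 on the log2 scale (edgeR adjusted p = 1.9e-17), and Dusp8, also a JNK phosphatase, fell by 0.64 (edgeR adjusted p = 5.6e-18). Dusp1, an immediate early gene and broad MAP kinase phosphatase, had 125 and 100 counts in the FGF2 libraries, against 123 and 115 in the others, and was not called (edgeR adjusted p = 0.71). Among 9 partners of Sprouty and Spred proteins, 2 were called higher (1 when replicate 2 without FGF2 was left out) and 3 lower, with a median of -0.13. Nf1, which encodes the Spred partner neurofibromin, was higher by 0.14 (edgeR adjusted p = 7.1e-04), Cav1, which encodes caveolin, by 2.19 (edgeR adjusted p = 1.3e-67), and Kit, a receptor that Spred proteins bind, fell by 0.32 (edgeR adjusted p = 3.2e-04).

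Of 13 transcripts known to respond to ERK, 12 were tested, and 9 were called higher and 2 lower, with a median of 0.69. The count of lower genes was 0 with DESeq2 and also when replicate 2 with FGF2 or replicate 1 without FGF2 was left out. The ETS factors of the Etv4 group, themselves FGF targets, went both ways. Etv5 rose by 0.47 (edgeR adjusted p = 1.1e-12) and Etv1 by 0.17 (edgeR adjusted p = 0.028, and 0.23 with DESeq2), while Etv4 fell by 0.63 on the log2 scale (edgeR adjusted p = 0.0030, and 0.12 with DESeq2). The highest value was that of Ier3, an early response gene, at 3.97 (250 and 225 counts in the FGF2 libraries, against 13 and 21 in the others). Of 10 other receptor feedback inhibitors 9 were tested, with 5 called higher (3 when replicate 2 with FGF2 was left out), 1 called lower (0 when replicate 1 without FGF2 was left out) and a median of 0.29. They reached from Errfi1, an inhibitor of the EGF receptor, which fell by 0.41 on the log2 scale (edgeR adjusted p = 0.0076, and 0.15 with DESeq2), to Socs3, an inhibitor of JAK kinases, at 1.49 (edgeR adjusted p = 7.1e-10).

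**Figure D4:**
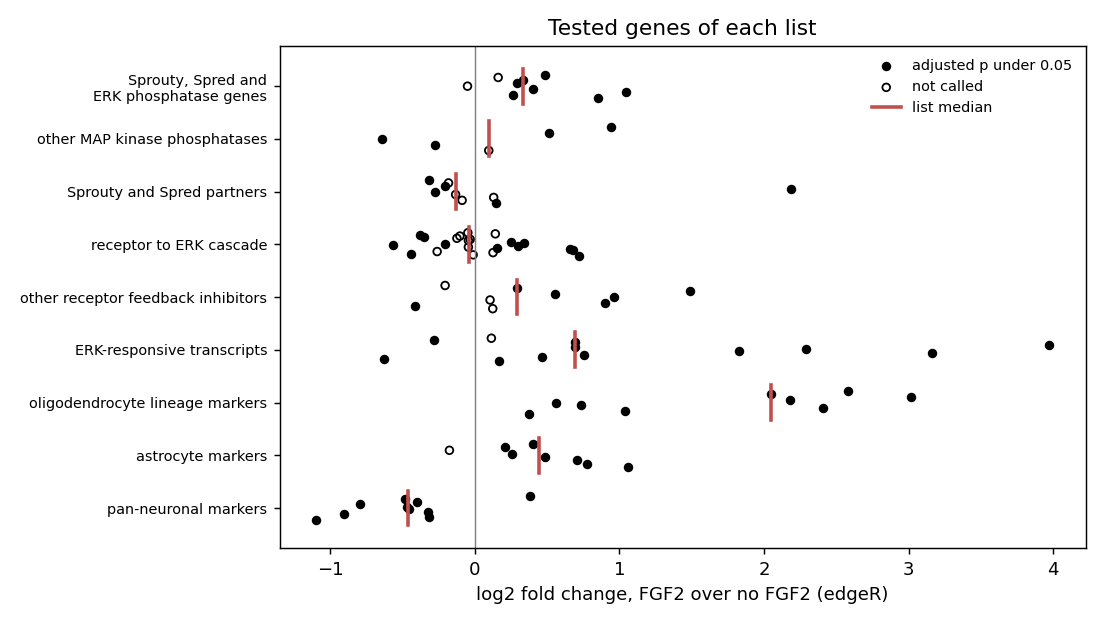
Log2 fold change (FGF2 over no FGF2, edgeR) of the tested genes of each list, with a point per gene, filled where the adjusted p-value was below 0.05, and a red line at the list median. The 9 tested Sprouty, Spred and ERK phosphatase genes lie between -0.05 and 1.04, a narrower range than the ERK-responsive transcripts, which lie between -0.63 and 3.97.

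The RNA was measured in bulk, so a changed mix of cell types and a changed level per cell cannot be told apart. Cell type markers moved with FGF2 as well. The oligodendrocyte lineage markers were called higher in 9 of 9 tested of 10, and their summed level was 1864 to 1873 CPM with FGF2 and 560 to 569 CPM without FGF2. The astrocyte markers were called higher in 7 of 8, with sums of 12342 to 12460 CPM and 7498 to 7546 CPM. The pan-neuronal markers were called lower in 9 of 10 and higher in 1 (0 with DESeq2 or when replicate 2 without FGF2 was left out), with sums of 3818 to 3942 CPM and 5520 to 5527 CPM, and the cortical identity markers, all of which were detected, were lower in 2 of 6 with sums of 275 to 280 CPM and 386 to 395 CPM. Radial glia and progenitor markers went both ways (3 higher and 2 lower of 8), with sums of 1842 to 1847 CPM with FGF2 and 934 to 956 CPM without FGF2, of which Vim alone made up 1575 and 674 CPM on average. Proliferation markers were lower in 5 of 6, and in 3 of 6 with DESeq2 or without replicate 1 of the FGF2 libraries. Microglia markers were called higher in 2 of 3 tested of 7 (1 with DESeq2 or when replicate 2 of either group was left out), with sums of 11.9 to 14.8 CPM with FGF2 and 5.81 to 6.10 CPM without FGF2. Endothelial markers summed to at most 9.92 CPM, with sums that overlapped between the groups, and Cldn5 was at 0 counts in all 4 libraries. Of 3 tested of 6, 1 was called higher and 1 lower. The lower call was lost with DESeq2, limma-voom, no filter, a replicate block or GC and length offsets. It was also lost in some fits that left out a library, and the higher call when at least 10 counts were needed in every library. Meningeal and mural markers summed to 62.9 to 66.3 CPM and 50.3 to 51.9 CPM, with 2 higher and 2 lower of 6 tested of 7. Of these sums Pdgfrb alone made up 47.9 CPM with FGF2 and 28.8 CPM without FGF2 on average. The part of these cell types in the levels of the Sprouty, Spred and ERK phosphatase genes was not tested.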

How the data were processed

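The RNA of 4 libraries of cultured P0 mouse PFC was analysed, 2 with and 2 without FGF2. The authors mapped reads to mm10 with HISAT2 2.1.0, kept those of mapping quality 20 or more with Samtools and counted them per gene with HTSeq 0.11.2, and the deposited values are raw counts. The annotation release and strand setting are not given in the sources used here. GENCODE M21 gave names, coordinates, exonic lengths and GC content (55240 of 55421 genes matched). The 5 tallies that name no gene were left out of totals and tests, of which read pairs in no feature made up 43.1% to 45.9% and ambiguous pairs 1.47% to 1.76% of the tallied pairs.

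The main test was edgeR 4.0.16 in R 4.3.3 (TMM, filterByExpr, robust quasi-likelihood fit, Benjamini-Hochberg adjustment), without a replicate block, and was tested on simulated data. Of 200 genes changed 1.2, 1.5 or 2.0 times there, among 17144 simulated, edgeR found 41, 112 and 158, with 4, 5 and 10 false calls. DESeq2 found 17, 76 and 121, with 0, 0 and 1 false calls. Many changes of the smaller sizes were thus missed in the simulation. In the data 6949 of 17144 genes were called, a far larger share than was changed there, so these rates do not carry over. Standard errors are the log2 fold change divided by the square root of F, and 95% intervals use the normal distribution. Alternatives were DESeq2 1.42.0, limma-voom (limma 3.58.1), other scalings and filters, GC and length offsets (lowess, span 0.3), a replicate block and each library left out. Ratios needed at least 10 counts in every library. Transcripts were compared with those of other genes by BLAST 2.17.0. The genes, the lists and the rule for named genes (all members, the extremes of each list, the FGF receptors, the ERK genes, Nf1, the Etv4 group, Dusp1 and the 3 genes most like the member that changed most) were chosen with earlier results of these data known. Some genes that the rule names are not reported here. Counts of the libraries of a group differed by more than sampling noise (chi-square per degree of freedom 2.28 with FGF2 and 1.76 without FGF2), so no library was taken as a copy of another. Technical libraries of 1 culture can differ in this way too. Intervals cover the spread of these libraries only.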

Additional observations from a re-analysis of the deposited data

How the results depend on the processing

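The number of calls moved most with the tool. With DESeq2 2 of the 9 tested genes were called higher in place of 7, and the log2 fold changes of the genes that lost the call were 0.85 for Spry1, 0.26 for Spry2, 0.29 for Spred3, 0.33 for Dusp4 and 0.48 for Dusp6, close to those of edgeR. DESeq2 also called 2068 genes higher and 1931 lower in place of 3541 and 3408, and 7 in place of 13 genes lower in the pathway lists. With upper quartile scaling Dusp4 lost its call at 0.31. With a library left out, between 4 and 6 of the 9 genes were called higher, the fewest without replicate 1 of the cultures without FGF2. In these fits the log2 fold change ranged from 0.22 to 0.30 for Spry2, from 0.25 to 0.32 for Spred3, from 0.25 to 0.40 for Dusp4, from 3.3e-04 to 0.33 for Dusp5 and from -0.12 to 0.011 for Spred2, which turned positive without replicate 2 of the cultures without FGF2. The group reduced to a lone library is assumed there to vary like the other. At an adjusted threshold of 0.01, 5 genes were called. Of the 9 log2 ratios within families 0 changed sign. The cause of the lost calls was not tested.

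The labels link libraries across the groups only by a replicate number, and whether same-numbered libraries share a preparation is not stated. The deviations of same-numbered libraries correlated at 0.0046 over genes, which cannot settle this. With the replicate number as a block 7 of the 9 genes were called higher, also with GC and length offsets, and 3476 genes in all. With the longest transcript in place of the exonic length the level of Spred3 was 13.6 CPM per kb with FGF2 and 11.1 without FGF2. Depth limits Dusp5 and Spry1 most, with 43 to 79 counts per library.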

Other observations

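Over the 4 libraries, the genes whose log2 levels, set against the mean without FGF2, lay closest to those of Spry4 were Olig2, a transcription factor of the oligodendrocyte lineage (Euclidean distance 0.064, log2 fold change 1.04), Gm48027 (0.066 and 1.10) and Gm43011 (0.067 and 1.05). Of 17135 genes compared, 109 lay within a distance of 0.2, so with 4 libraries many genes share this pattern.

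Among the marker lists, extremes of the log2 fold change were 0.37 for Olig1, the lowest in the oligodendrocyte lineage, 1.06 for Gfap and -0.18 for S100b in astrocytes, 0.38 for Nefl and -1.10 for Tubb3 among pan-neuronal genes, -1.07 for Tbr1, the lowest among cortical identity genes, 1.23 for Vim and -1.02 for Hopx among progenitor genes, and -0.10 for Mki67 and -0.79 for Ccnb1 among proliferation genes. At under 10 CPM in every group, they were 1.43 for Csf1r and 0.96 for C1qa in microglia, 2.71 for Flt1 and -0.95 for Kdr in endothelium, and 1.89 for Rgs5 and -2.18 for Col1a1 in meningeal fibroblasts and mural cells.

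Transcript stretches of 100 bases or more that matched a different gene at 95% identity or more were found for 4 of the 9 members whose transcripts were compared. Those of Spry1 (577 bases, Gm42922) and Dusp5 (547 bases, AC137853.2) lie in genes that overlap them on the opposite strand. Spred1 shares 169 bases with Vps35 (95.3% identity), and Spred2 shares 125 bases with Gm14612 (96.0% identity).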
